A study of Homo sapiens with 6 samples.

Results

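The genes described here are 30 genes of cholesterol and fatty acid synthesis, picked by symbol from the 28565 genes of the deposited count table. All 30 had a row, and all 30 passed the filter on low counts that left 13389 genes for testing. They fall into 17 enzymes of the sterol arm, 8 enzymes of the fatty acid arm and 5 genes called regulators here. The regulators are SREBF1 and SREBF2, which encode sterol regulatory element-binding proteins (SREBPs), SCAP and INSIG1, which control them, and STARD4, a sterol carrier. The 30 genes were measured by RNA-seq in HK-2 cells, an established human line of renal tubular epithelium. There were 3 libraries exposed to cisplatin for 24 h and 3 exposed for 0 h. Cells of both groups carried the same overexpression plasmid for a long noncoding RNA, which the titles call LncR2, and were kept for 48 h after transfection with Lipofectamine. Cisplatin is a platinum drug that crosslinks DNA, and its dose is not given in the sources used here. No library without the plasmid was analysed here, so the comparison describes time in cisplatin in plasmid-carrying cells. Whether the cisplatin time fell within those 48 h or came after them is not given in the sources used here. Whether the libraries are separate cultures is not stated in their labels, and the series' description counts fewer biological replicates than 3, so p-values cover only the spread between these libraries, which may be technical.

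Cholesterol is built from acetyl-CoA through mevalonate, isoprenoid diphosphates, squalene and lanosterol, and fatty acids are built from the same acetyl-CoA through malonyl-CoA. SREBP precursors sit in the membrane of the endoplasmic reticulum with their escort SCAP. When sterols are low, SCAP carries them to the Golgi apparatus for cleavage and the freed factors switch on genes of both arms, and when sterols are high, INSIG proteins hold the complex back. The product of SREBF2 acts mainly on sterol genes and that of SREBF1 mainly on fatty acid genes. Renal tubule cells take up and use fatty acids as fuel and, like other cells, make sterols for their membranes.

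SREBF2 encodes an SREBP, INSIG1 had the smallest p of the regulators, and LSS and FDPS had the smallest p of the sterol enzymes. The promoters of these 4 genes are shown. Each is the stretch of 250 bases before the RefSeq transcript start, 5′ to 3′ on the strand of the gene, in GRCh38.p14. Capitals mark every match, on either strand, of TCACNCCAC (a sterol regulatory element), CCAAT (the core of the NF-Y site) or GGGCGG (the core of the SP1 site).
SREBF2 (chr22:41832855-41833104, plus strand): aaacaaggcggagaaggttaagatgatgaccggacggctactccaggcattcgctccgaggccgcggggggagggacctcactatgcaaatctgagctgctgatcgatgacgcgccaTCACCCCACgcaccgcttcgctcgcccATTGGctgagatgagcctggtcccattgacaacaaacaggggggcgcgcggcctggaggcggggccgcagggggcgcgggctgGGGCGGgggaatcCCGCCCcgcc
INSIG1 (chr7:155297628-155297877, plus strand): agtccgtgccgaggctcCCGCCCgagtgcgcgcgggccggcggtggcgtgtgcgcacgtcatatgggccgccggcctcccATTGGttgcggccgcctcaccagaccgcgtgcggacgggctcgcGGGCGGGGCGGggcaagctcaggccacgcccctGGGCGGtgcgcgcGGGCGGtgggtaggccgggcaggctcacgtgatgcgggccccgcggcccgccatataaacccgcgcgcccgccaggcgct
LSS (chr21:46228775-46229024, minus strand): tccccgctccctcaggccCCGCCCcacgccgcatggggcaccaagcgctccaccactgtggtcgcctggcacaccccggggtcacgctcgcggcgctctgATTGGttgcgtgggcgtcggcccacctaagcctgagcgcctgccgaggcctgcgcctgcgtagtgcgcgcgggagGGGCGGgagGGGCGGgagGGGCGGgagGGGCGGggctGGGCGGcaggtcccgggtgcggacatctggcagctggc
FDPS (chr1:155308616-155308865, plus strand): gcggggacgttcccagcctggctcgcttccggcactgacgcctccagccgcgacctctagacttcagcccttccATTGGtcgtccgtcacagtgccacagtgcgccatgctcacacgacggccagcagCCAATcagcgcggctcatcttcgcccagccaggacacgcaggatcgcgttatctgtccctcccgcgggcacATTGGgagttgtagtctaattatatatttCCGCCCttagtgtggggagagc

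Of the stretches shown, that of SREBF2 alone held the sterol element, as TCACCCCAC on the plus strand. No match of the 3 motifs overlapped another in that stretch. INSIG1 held 1 CCAAT and 5 GGGCGG matches, 2 of which overlapped in a single run, LSS held 1 CCAAT and 6 GGGCGG matches, and FDPS held 3 CCAAT matches and 1 GGGCGG match. RefSeq promoter windows of 300 bases, reaching 50 bases past the start, matched 27 of the 30 genes in 37 windows, and windows of the same gene can overlap. FASN, FDFT1 and SQLE were not matched. TCACNCCAC was in 1 of the 37 windows (2.70%), that of SREBF2, and in 1.13% of all 35116 windows. CCAAT was in 25 of the 37 windows (67.6%) and in 34.6% of all windows, and GGGCGG was in 33 of the 37 (89.2%) and in 45% of all. All windows were not restricted to genes tested here, and the share among windows of tested genes was not counted. These matches describe letters in a window and say nothing of binding.

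Total counts ran from 6022268 to 7248754 in the 24 h libraries and from 5028881 to 5844246 in the 0 h libraries, without molecular identifiers. On the 2 leading principal components, with 39.3% and 27.7% of the variance, 0 h replicate 3 stood apart from its group: it was at 30.4 on the second component, against -8.50 and 1.48 in 0 h replicates 1 and 2, and at 1.28 on the leading one, against -23.8 and -24.5. Of the epithelial markers, KRT8, KRT18, KRT19, EPCAM and PAX8 had 159 or more counts in every library, PAX2 had 19 to 49, and CDH1 had 1 count at most. Markers of the differentiated proximal tubule were at or near 0: CUBN had 2 to 6 counts, and AQP1, SLC34A1 and SLC5A2 had 3 at most. Markers of endothelium and adipocytes had 2 counts at most, the leukocyte marker CD68 had 7 to 15, and the fibroblast markers DCN and COL1A1 had 0 to 3 and 21 to 36.

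Whether these genes were called higher after 24 h in cisplatin depended on how the libraries were scaled: 0 of the 30 were called with TMM scaling of the counts and 14 with the library totals behind the authors' FPKM, a scaling that called 17.4% of all genes higher. With TMM scaling, the quasi-likelihood test of edgeR called 0 of the 30 genes higher and 0 lower at a Benjamini-Hochberg adjusted p under 0.05, where it called 2.94% of all genes tested, 0.866% higher and 2.08% lower. DESeq2 also called 0 of them. At an unadjusted p under 0.05, 6 of the 30 were higher and 0 were lower, where 8.22% of all genes were higher and 9.93% lower. The 6 were LSS, FDPS, EBP and TM7SF2 of the sterol arm and ACLY and ACSS2 of the fatty acid arm. In bulk RNA, a change in the mix of cells and a change of RNA per cell cannot be told apart.

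The log2 fold change (24 h over 0 h) was above 0 for 22 of the 30 genes and for 49.7% of all genes tested. Its median was 0.14 over the 30 genes and -0.0016 over all genes, and single values ran from -0.38 in ELOVL6 to 0.52 in TM7SF2. The 95% interval lay wholly within 1.5-fold in either direction for 26 of the 30 genes, compared with 61.5% of all genes tested. The 4 exceptions were TM7SF2, HSD17B7, ELOVL6 and SREBF1. CPM, the counts scaled to equal TMM-adjusted library totals, did not overlap between the groups for 10 of the 30 genes. In 9 of these the 24 h libraries were higher (10.9% of all genes) and in 1, HMGCS1, they were lower (11.7% of all genes).

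**Figure D1:**
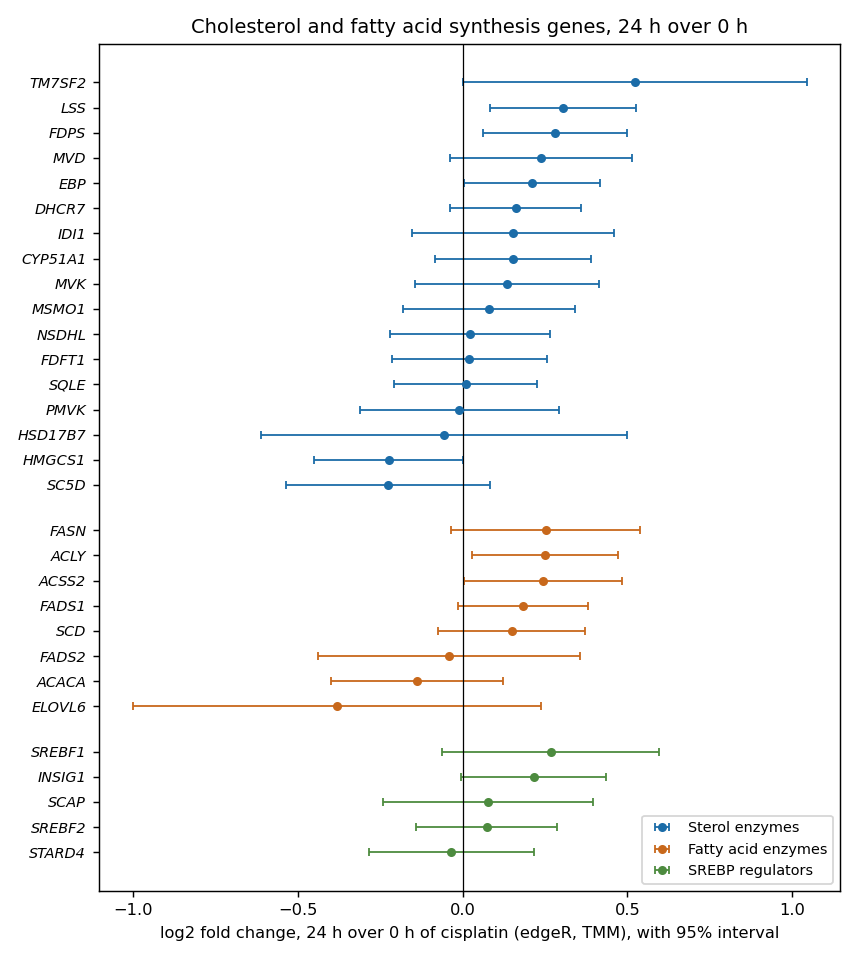
Log2 fold change of each gene, 24 h over 0 h, on the x axis (edgeR with TMM scaling, 3 libraries per group), with bars for the 95% interval and colours for the 3 groups of genes. All points but those of TM7SF2 and ELOVL6 lie between -0.23 and 0.30, and the widest intervals are those of TM7SF2, HSD17B7 and ELOVL6.

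Sterol enzymes had a median log2 fold change of 0.13, with 13 of 17 above 0 and 4 with an unadjusted p under 0.05. Of the enzymes that make mevalonate and turn it into isoprenoid units, HMGCS1, which forms HMG-CoA, had 167, 167 and 184 CPM at 24 h and 185, 191 and 229.5 CPM at 0 h. All of its 24 h values were below all of its 0 h values, the lone gene of the 30 with that order, and the log2 fold change of -0.22 ± 0.11 (SE) did not pass the edgeR test (adjusted p = 0.278). The kinases MVK and PMVK were at 0.13 ± 0.13 and -0.01 ± 0.14 on the log2 scale, and the decarboxylase MVD was at 0.24 ± 0.13.

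IDI1, which isomerises isopentenyl diphosphate, had 113, 103 and 126 CPM at 24 h and 81.9, 94.1 and 131.5 CPM at 0 h. The high value at 0 h is that of replicate 3, above every 24 h library, and the log2 fold change was 0.15 ± 0.14 (SE; adjusted p = 0.632 by edgeR). FDPS, which makes farnesyl diphosphate, had 228, 233 and 235 CPM at 24 h and 194, 169 and 209.7 CPM at 0 h. The groups did not overlap, and the 24 h libraries lay within a few CPM of each other. Its log2 fold change was 0.28 ± 0.10 (SE), with a 95% interval from 0.06 to 0.50 and an edgeR adjusted p of 0.158. The annotation holds named pseudogene copies of 5 of the 30 genes, FDPS, CYP51A1, HSD17B7, SCD and FADS2, so their counts are uncertain.

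At the branch to sterols, FDFT1 (squalene synthase) and SQLE (squalene epoxidase) were almost level, at 0.02 ± 0.11 and 0.01 ± 0.10 on the log2 scale, with 95% intervals from -0.22 to 0.26 and from -0.21 to 0.23. SQLE had 329, 317 and 347 CPM at 24 h and 304, 319 and 364 CPM at 0 h, so the 24 h values lay within the range at 0 h. LSS, which closes the rings to form lanosterol, had the smallest p of all 30 genes. It had 177, 177 and 163 CPM at 24 h and 157, 128 and 133 CPM at 0 h, with no overlap. Its log2 fold change was 0.30 ± 0.10 (SE), with a 95% interval from 0.08 to 0.52 and an edgeR adjusted p of 0.129. LSS (ENSG00000160285.14) lies on chromosome 21 from 46188141 to 46228824 and FDPS (ENSG00000160752.14) on chromosome 1 from 155308748 to 155320666, in GENCODE 29 on GRCh38.

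Of the enzymes that trim lanosterol to cholesterol, CYP51A1, the lanosterol demethylase, was at 0.15 ± 0.11 on the log2 scale. The demethylation enzymes MSMO1, NSDHL and HSD17B7 were at 0.08 ± 0.12, 0.02 ± 0.11 and -0.06 ± 0.26. EBP, a sterol isomerase, had 213, 226 and 230.0 CPM at 24 h and 188, 184 and 207 CPM at 0 h, with no overlap (0.21 ± 0.10 on the log2 scale, edgeR adjusted p = 0.262). DHCR7, which makes the last reduction to cholesterol, had 193.5, 191 and 179.5 CPM at 24 h and 167, 166 and 172 CPM at 0 h. Its groups did not overlap either, with a log2 fold change of 0.16 ± 0.09 (SE; adjusted p = 0.390 by edgeR). SC5D, a sterol desaturase, ran from 55.8 to 67.5 CPM at 24 h and from 55.6 to 88.6 CPM at 0 h, with the top value in 0 h replicate 3 and a log2 fold change of -0.23 ± 0.15.

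TM7SF2, a sterol reductase, was scarce: its 24 h libraries held 48, 41 and 49 counts and its 0 h libraries 18, 30 and 27. The CPM were 7.92, 5.93 and 6.72 at 24 h and 3.59, 5.88 and 4.77 at 0 h, so the groups were only just apart. The log2 fold change of 0.52 ± 0.25 had a 95% interval from 0.0007 to 1.04 (edgeR adjusted p = 0.274). TM7SF2 shares exon bases with VPS51 on the same strand, so its counts are uncertain. In all, 14 of the 30 genes share exon bases with another gene, 13 of them, LSS, FDPS and ACLY included, with a gene on the opposite strand, and the use of strand in counting is not given in the sources used here.

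Fatty acid enzymes had a median log2 fold change of 0.17, with 5 of 8 above 0 and 2 with an unadjusted p under 0.05. Both enzymes that supply cytosolic acetyl-CoA were among the 6 with a small p. ACLY, which splits citrate, had 412, 377 and 377 CPM at 24 h and 363, 320.1 and 298 CPM at 0 h. The groups did not overlap, and the log2 fold change was 0.25 ± 0.10 (SE), with a 95% interval from 0.03 to 0.47 and an edgeR adjusted p of 0.218. ACSS2, which activates acetate, had 48.8, 42.3 and 45.5 CPM at 24 h and 37.3, 38.2 and 39.7 CPM at 0 h. It too showed no overlap, with a log2 fold change of 0.24 ± 0.11 (SE), a 95% interval from 0.003 to 0.48 and an edgeR adjusted p of 0.269. ACLY (ENSG00000131473.16) lies on chromosome 17 from 41866908 to 41930542 and ACSS2 (ENSG00000131069.19) on chromosome 20 from 34872146 to 34927962.

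FASN, which builds palmitate, had 461.5, 430.3 and 327 CPM at 24 h and 397, 330.1 and 296 CPM at 0 h, with a log2 fold change of 0.25 ± 0.14. Its groups overlapped, because 24 h replicate 3 lay below 0 h replicates 1 and 2. ACACA, the carboxylase that makes malonyl-CoA, was at -0.14 ± 0.12, below 0 although the enzymes before and after it in the pathway were above 0. None of these passed the test, so no difference between them is shown.

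Of the desaturases, SCD, which makes oleate, had 944, 810.0 and 902.5 CPM at 24 h and 794, 768 and 835 CPM at 0 h (0.15 ± 0.10 on the log2 scale). FADS1 had 282, 281 and 276 CPM at 24 h and 239, 254 and 246 CPM at 0 h, with no overlap (0.18 ± 0.09, edgeR adjusted p = 0.317). FADS2 was at -0.04 ± 0.19, and its gene overlaps exons of FADS1 on the opposite strand and of FEN1 on its own. The elongase ELOVL6 had counts of 30, 24 and 22 in the 24 h libraries against 25, 18 and 35 in the 0 h libraries, and its value of -0.38 ± 0.29 has a 95% interval that reaches down to a ratio of 0.499 and up to 1.18, the widest of the fatty acid genes at this depth.

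Regulators had a median log2 fold change of 0.08, with 4 of 5 above 0 and 0 with an unadjusted p under 0.05. INSIG1, which holds the SREBP complex back and is itself an SREBP target, had 213, 208 and 218 CPM at 24 h and 163, 181 and 205 CPM at 0 h. The groups did not overlap, although 0 h replicate 3 came close, and the log2 fold change was 0.22 ± 0.10 (SE; 95% interval from -0.005 to 0.44, edgeR adjusted p = 0.287). SREBF1 had 33.3, 35.2 and 24.4 CPM at 24 h and 27.7, 27.3 and 22.2 CPM at 0 h. Its replicates 3 were the lowest of both groups, the groups overlapped, and the log2 fold change was 0.27 ± 0.15 (SE; adjusted p = 0.387 by edgeR). INSIG1 (ENSG00000186480.12) lies on chromosome 7 from 155297776 to 155310235 and SREBF1 (ENSG00000072310.16) on chromosome 17 from 17810399 to 17837002.

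SREBF2, which holds the sterol element shown above in its promoter, had 228.5, 231 and 208 CPM at 24 h and 219.9, 223 and 192 CPM at 0 h. Here too replicate 3 was the lowest in each group, and the log2 fold change was 0.07 ± 0.10, with a 95% interval from -0.14 to 0.29. SCAP was at 0.08 ± 0.15, with its lowest value, 29.8 CPM, in 0 h replicate 3. STARD4, a carrier of sterols between membranes, was at -0.03 ± 0.12 on the log2 scale. Message of the SREBPs says nothing of their cleavage, which was not measured.

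**Figure D2:**
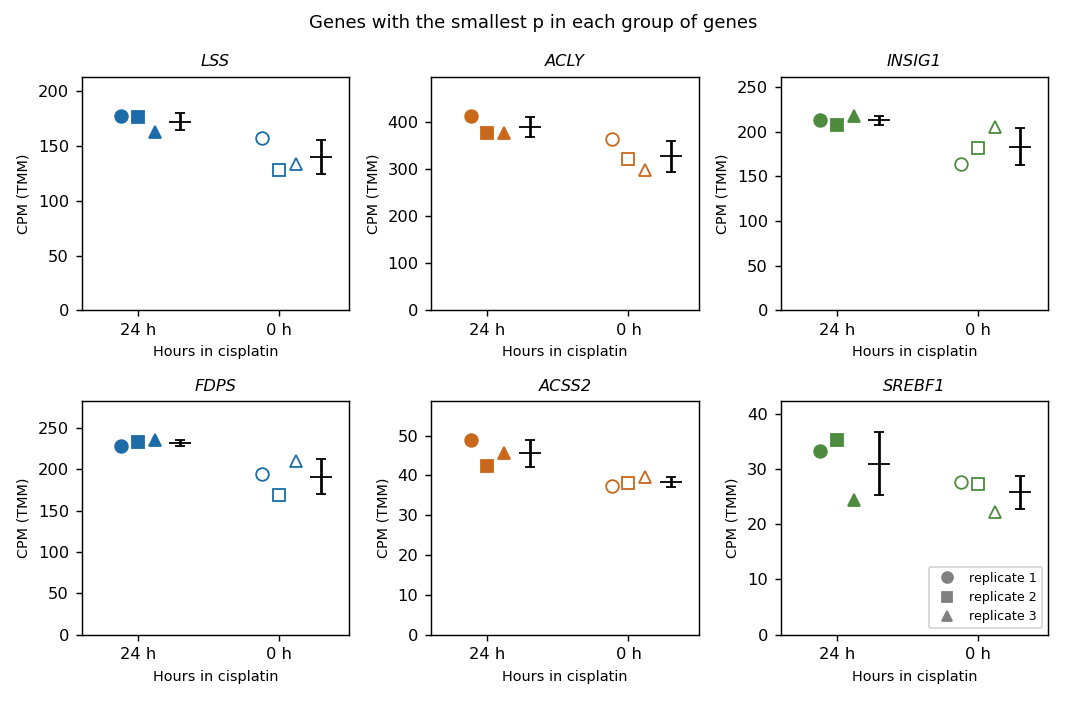
CPM of LSS and FDPS (left), ACLY and ACSS2 (middle) and INSIG1 and SREBF1 (right) in each library, at 24 h (filled) and 0 h (open), with mean and SD of 3 libraries in black. The genes are the 2 with the smallest p in each group of genes, and picking by p favours libraries that are apart. The 24 h and 0 h libraries are apart for 5 of them and overlap for SREBF1. Of all 30 genes, 9 were higher at 24 h without overlap, where 10.9% of all genes tested were.

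Summed over its genes, the sterol arm had 2264, 2313 and 2429 CPM at 24 h and 2085, 2059 and 2424 CPM at 0 h. The groups overlapped through 0 h replicate 3, which was nearly as high as the highest 24 h library. The fatty acid arm had 2299, 2057 and 2057 CPM at 24 h and 2001, 1846 and 1842 CPM at 0 h, with no overlap. The regulators had 589, 579 and 563 CPM at 24 h and 514, 551 and 527 CPM at 0 h, also with no overlap. Abundant genes lead these sums. In the fatty acid arm SCD, FASN and ACLY averaged 886, 406 and 389 CPM at 24 h, and ACACA, FADS2 and ELOVL6 had log2 fold changes below 0. Of the regulators SREBF2 and INSIG1 averaged 223 and 213 CPM at 24 h, where the sum averaged 577 CPM. How often sums of other genes keep the groups apart was not counted. As group means, the sterol arm was at 2335 ± 84.7 CPM at 24 h and 2189 ± 204 CPM at 0 h, and the fatty acid arm at 2138 ± 140 and 1896 ± 90.7 CPM (SD, n = 3 each). All 30 genes together took 0.519, 0.487 and 0.508% of the total count at 24 h and 0.458, 0.452 and 0.465% at 0 h.

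**Figure D3:**
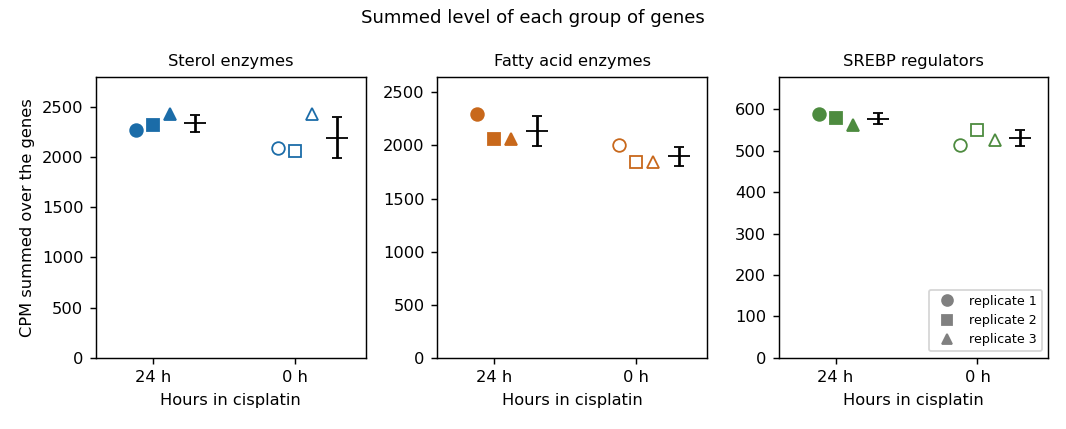
CPM summed over the genes of each group in each library, at 24 h (filled) and 0 h (open), with mean and SD of 3 libraries in black. In the sterol panel the triangle at 0 h, replicate 3 with 2424 CPM, lies level with the 24 h libraries, while the fatty acid and regulator panels show no overlap. Abundant genes weigh most in these sums.

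For each arm, 0 h replicate 3 was ranked within its own group. That is 1 library, and a difference between the arms was not tested. Among the 3 libraries at 0 h it was the highest for 12 of 17 sterol enzymes and the lowest for 1. It was the highest for 3 and the lowest for 4 of 8 fatty acid enzymes, and the highest for 2 and the lowest for 3 of 5 regulators. Over all genes tested it was the highest for 37.7% and the lowest for 39.9%. Relative to the mean of 0 h replicates 1 and 2 its largest excess among sterol enzymes was 0.58 on the log2 scale for IDI1, followed by 0.53 for SC5D and 0.41 for MSMO1. LSS, MVK and PMVK lay below that mean, at -0.10, -0.09 and -0.09. The fatty acid enzymes ran from -0.66 for FADS2 to 0.54 for ELOVL6, which had the next largest excess of the 30 genes after IDI1. Of the regulators, SCAP, SREBF1 and SREBF2 were at -0.60, -0.31 and -0.20, and STARD4 and INSIG1 at 0.23 and 0.25. The summed sterol level divided by the summed fatty acid level was 0.985, 1.12 and 1.18 at 24 h and 1.04, 1.12 and 1.32 at 0 h. The top ratio was that of 0 h replicate 3, and the groups overlapped. The part of this library's other differences in these values was not tested.

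Without 0 h replicate 3, 3 of the 30 genes were called higher and 0 lower by edgeR, where 4.18% of all genes were called higher. They were IDI1 (0.38 ± 0.11 on the log2 scale, adjusted p = 0.0176), FDPS (0.36 ± 0.11, adjusted p = 0.0207) and INSIG1 (0.31 ± 0.11, adjusted p = 0.0475). In the library left out, IDI1, FDPS and INSIG1 were above the mean of the other 0 h libraries, by 0.58, 0.21 and 0.25 on the log2 scale. Leaving it out therefore raises their fold changes. IDI1 and FDPS follow each other in the pathway, and whether that bears on their calls was not tested. The medians in this fit were 0.18 for the sterol arm, 0.17 for the fatty acid arm and 0.05 for the regulators. Leaving out any other single library called 0 of the 30, and leaving out both libraries numbered 3 called FDPS alone, where 2.28% of all genes were called higher.

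**Figure D4:**
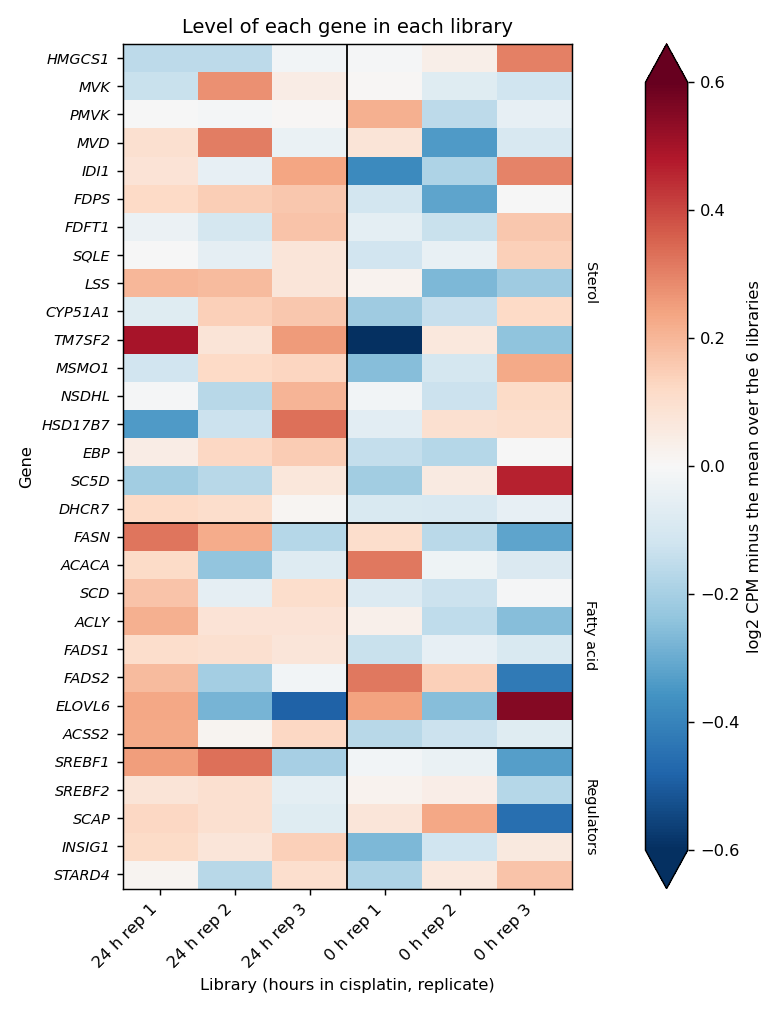
Log2 CPM of each gene minus its mean over the 6 libraries, with 24 h libraries in the left columns and 0 h libraries in the right columns, and lines between the sterol, fatty acid and regulator genes. In the sterol block 0 h replicate 3 is red for IDI1, SC5D, HMGCS1 and MSMO1, and in the lower blocks it is blue for FASN, FADS2, SCAP and SREBF1 and red for ELOVL6 and STARD4.

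How many of these genes were called depended on the scaling of the libraries, and also on the libraries kept, a replicate block and, in FPKM, the filter on low values. The authors' FPKM divide the fragments of a gene by its length and by a library total. Those totals differed from the summed gene counts. Gene counts per FPKM total, relative to 0 h replicate 1, were 1.08, 1.23 and 1.23 at 24 h and 1.00, 0.995 and 1.03 at 0 h. Scaled by those totals, the median of all genes moved to 0.24 on the log2 scale, and edgeR called 2350 genes higher and 192 lower (92.4% higher), compared with 116 and 278 with TMM (29.4% higher). In that scaling 14 of the 30 genes were called higher and 0 lower, where 17.4% of all genes were called higher: 7 sterol enzymes, 5 fatty acid enzymes and 2 regulators. The medians were 0.38 for the sterol arm, 0.40 for the fatty acid arm and 0.31 for the regulators. Relative to the median of all genes these lie about where TMM places them, as the plot of medians by scaling shows.

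On that scale LSS was at 0.54 ± 0.13 (adjusted p = 0.00445 by edgeR), FDPS at 0.52 ± 0.13 (adjusted p = 0.00681) and ACLY at 0.48 ± 0.13 (adjusted p = 0.0106). HMGCS1, SC5D, PMVK, HSD17B7, ACACA, FADS2 and STARD4, which were below 0 with TMM, were above 0 there and were not called, and ELOVL6 stayed below 0. With limma on log2(FPKM + 1), 11 of the 30 were called higher and 0 lower, where 12.4% of all genes were called higher. With a pseudocount of 0.1 it called 12 higher, where 12.2% of all genes were called higher. With a pseudocount of 1 and no filter on low values it called 0 of the 30, and 22 genes higher and 10 lower in all. Scaled by the FPKM totals and without 0 h replicate 3, a setting chosen after seeing the data, edgeR called 16 of the 30 higher, where 21.6% of all genes were called higher. With TMM and the replicate number as a block it called 4 of the 30 higher, LSS, FDPS, ACLY and FASN, where 5.52% of all genes were called higher. Which scaling gives the amount of RNA per cell was not measured.

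**Figure D5:**
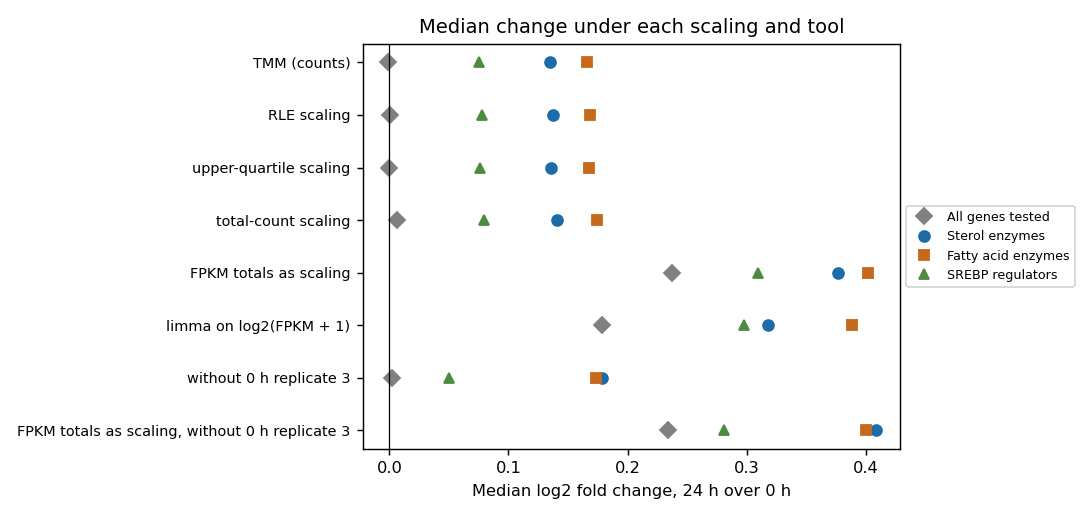
Median log2 fold change, 24 h over 0 h, of all genes tested and of the 3 groups of genes, for TMM and 7 other settings on the y axis. The FPKM-based settings place all 4 medians higher, that of all genes at 0.18 to 0.24. In the settings shown, the median of all genes is the lowest, followed by that of regulators and then those of both arms. Which arm is higher differs between settings. In some other fits, each with a single library removed, the regulators lie above the sterol arm, so this ranking is not stable.

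FPKM allow levels to be compared between genes per length. By mean FPKM over the 6 libraries, SCD led (96.7 FPKM), followed by FDPS (79.4), EBP (72.4), SQLE (68.3) and ACLY (50.5), and HSD17B7 (1.75) and ELOVL6 (0.397) were the lowest. SCD had 108, 103 and 117 FPKM at 24 h and 83.1, 81.4 and 87.4 FPKM at 0 h, and FDPS 85.1, 96.2 and 99.5 FPKM at 24 h and 66.2, 58.2 and 71.5 FPKM at 0 h. In these FPKM both genes were higher in all 24 h libraries than in all 0 h libraries. The share of all genes with that order in FPKM was not counted, and FPKM placed genes higher at 24 h in general. With limma on log2(FPKM + 1) the median log2 fold change of all genes was 0.18. In CPM the groups overlapped for SCD (810 CPM in 24 h replicate 2, 834.5 CPM in 0 h replicate 3) and not for FDPS. EBP and SQLE, next to each other in the order, averaged 83.7 ± 8.64 and 74.1 ± 6.82 FPKM at 24 h and 61.2 ± 3.63 and 62.45 ± 5.73 FPKM at 0 h (SD, n = 3 each), and their ranges overlapped in both groups. SREBF2 (24.9 FPKM) was well above SREBF1 (3.90 FPKM), and FADS1 (20.5 FPKM) above FADS2 (2.04 FPKM).

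The 5 further lists of the same pathways held 58 genes, of which 56 were tested, and 2 rose and 0 fell by edgeR at an adjusted p under 0.05, where 2.94% of all genes tested were called, 0.866% higher and 2.08% lower. SLC25A1, the carrier that exports citrate from mitochondria and so feeds ACLY, rose in the list of further fatty acid synthesis genes (1 of 17 tested). It had 133, 147 and 129 CPM at 24 h and 85.1, 93.3 and 91.6 CPM at 0 h, with no overlap. Its log2 fold change was 0.60 ± 0.10 (SE; adjusted p = 0.00338 by edgeR), and it was called without each of the 6 libraries in turn. ABCA1, the pump that exports cholesterol and a target of liver X receptors, rose in the list of sterol uptake, storage and efflux (1 of 11 tested). It had 229, 223 and 203 CPM at 24 h and 177, 144 and 127 CPM at 0 h, again with no overlap. Its log2 fold change was 0.55 ± 0.12 (SE; adjusted p = 0.0193 by edgeR), and the call was lost without 0 h replicate 2 (adjusted p = 0.123), 24 h replicate 1 (adjusted p = 0.0663) or 24 h replicate 2 (adjusted p = 0.123).

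The other lists had 0 called. Isoprenoid and remaining sterol enzymes (12 tested) had a median of -0.01 on the log2 scale, with 0 genes at an unadjusted p under 0.05. The smallest p there was that of NUS1, a subunit of the dolichol-making transferase, at 0.17 ± 0.12. Genes of SREBP processing and sterol-regulated degradation (8 tested) had a median of 0.05 on the log2 scale. Fatty acid oxidation (8 tested) had a median of -0.01, and 2 genes, both lower, had an unadjusted p under 0.05, where 9.93% of all genes were lower at that p. The smallest was that of PPARA, a nuclear receptor for fatty acids, at -0.48 ± 0.15 (edgeR adjusted p = 0.103). Without 0 h replicate 3, PPARA passed the edgeR test (adjusted p = 0.00594). That fit called 923 genes lower in all, compared with 278 with all libraries. Scaled by the FPKM totals it was at -0.25 (adjusted p = 0.249 by edgeR), and with limma on log2(FPKM + 1) at -0.16 (adjusted p = 0.349). Scaled by the FPKM totals, NUS1 passed the edgeR test (adjusted p = 0.0363, against 0.517 with TMM), where 17.4% of all genes were called higher.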

How the data were processed

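Directional, rRNA-depleted total RNA libraries of HK-2 cells were sequenced as paired ends, per the labels' protocols. The authors deposited whole-number read counts for 28565 genes and FPKM, rounded to hundredths, for 28561 genes. TopHat2, bcl2fastq and edgeR are the tools, and GRCh38 the build, per the submitters' processing notes. Their versions, the read counter, the annotation and the use of strand: not given in the sources used here. Library totals behind the FPKM were recovered as the median ratio of count to FPKM over 3570 genes with more than 300 counts in every library.

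The counts were tested in edgeR 4.0.16 (R 4.3.3) by the quasi-likelihood test with TMM scaling, the default filterByExpr filter (minimum count 10) and no covariates, with Benjamini-Hochberg adjustment over 13389 genes. Errors of fold changes are model SEs. Alternatives used DESeq2 1.42.0 and limma 3.58.1 on FPKM, other scalings and filters, a replicate block and left-out libraries. Of the 30 genes, values per library were to be given for called genes and for the 2 with the smallest p in each group, and the others by fold change or range. Further genes shown per library were chosen after their values were seen. Of the further lists, called genes and the gene with the smallest p are named, except 1 that is not reported here. The genes, lists and tests were chosen with earlier results of these data known. Gene positions are from GENCODE 29, and promoters from RefSeq (GRCh38.p14). The 15 pairs of libraries all differed by more than sampling noise.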

Additional observations from a re-analysis of the deposited data

How the results depend on the processing

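With RLE, upper-quartile or total-count scaling, a minimum count of 30, robust dispersion or DESeq2, 0 of the 30 genes were called, and counts over all genes stayed within 1.5 times those with TMM. Without any low-count filter, 345 genes in all were higher, and 0 of the 30 were called. With the FPKM totals, 2350 genes in all were higher, and 14 of the 30 (7 sterol, 5 fatty acid, 2 regulators). Limma on log2(FPKM + 1) gave 1657 higher and 138 lower in all, and 11 of the 30 higher (6, 4 and 1). With a pseudocount of 0.1 these were 1632, 136 and 12 (6, 5 and 1), and with a pseudocount of 1 and no filter 22, 10 and 0. Without both libraries numbered 3, 306 were higher and 539 lower in all, and 1 of the 30, a sterol enzyme. Chosen after seeing the data, the FPKM totals without 0 h replicate 3 gave 2945 higher in all and 16 of the 30 (10, 5 and 1). The FPKM-based settings divide by other library totals; the cause of the other shifts was not tested. Without filter and with FPKM, ABCA1 and SLC25A1 lost their calls (adjusted p = 0.0855 and 0.0610 by limma).

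Leaving out a single library gave 21 to 574 higher and 92 to 923 lower genes in all, 0 to 3 of the 30 higher, 0 to 2 sterol enzymes and 0 to 1 regulators, with the upper counts without 0 h replicate 3. Equal replicate numbers paired the libraries only in part: deviations of same-numbered libraries correlated at 0.241, -0.020 and 0.422 across genes. For 24 h replicate 3 the other values were -0.327 and -0.203. For 24 h replicate 1 they were 0.226 and -0.368, so its own number led only just. The replicate block gave 739 higher and 959 lower genes in all, and 4 of the 30 higher, 2 of each arm. Not every library correlated best with its own number: 24 h replicate 2 did so with 0 h replicate 1 (0.099). Over the 20 alternatives, genes of the 30 changed sign 60 times, none of them called, and 0 called values reversed. Depth limits TM7SF2, HSD17B7 and ELOVL6, which had 49 counts or fewer in every library.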
